A study of Mus musculus with 6 samples.

Results

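The 7 genes Tm7sf2, Msmo1, Nsdhl, Hsd17b7, Ebp, Sc5d and Dhcr7 encode enzymes of cholesterol synthesis that act after lanosterol has lost its C14 methyl group. They were taken by gene symbol from a table of 24421 genes, and all 7 were present and passed the filter on low counts. Total RNA of regulatory T cells (Tregs), which are CD4 T cells that express Foxp3 and restrain immune responses, was sequenced from mouse spleen and lymph nodes in 3 Srebp2cKO libraries (replicates 6, 7 and 8) and 3 Srebp2WT libraries (replicates 1, 3 and 5). In Srebp2cKO both alleles of the gene for SREBP2 were floxed (FL/FL), and Foxp3YFPCRE, a Cre recombinase with a yellow fluorescent protein driven from Foxp3, was present as +/-. In Srebp2WT the SREBP2 alleles were WT/WT and Foxp3YFPCRE was +/+, so both genotypes carried the Cre, in different doses that cannot be told apart from the loss of SREBP2. Foxp3 lies on the X chromosome, so a +/- female can hold Tregs in which the Cre allele is silent. Age, sex, strain and the number of animals behind a library are not stated in the labels. P-values therefore cover only the differences between these libraries, and part of these can be technical. The question addressed is how the late enzymes differ in Tregs that have lost SREBP2.

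SREBP2 is a membrane-bound transcription factor that is cleaved and enters the nucleus when sterols in the endoplasmic reticulum are low, and it then activates genes for cholesterol synthesis and uptake. After the demethylase Cyp51 has acted, a reductase saturates the resulting double bond, a cycle of 3 enzymes removes the methyl groups at C4, and an isomerase, a desaturase and a reductase move and remove double bonds in the sterol rings. The C4 cycle runs in the endoplasmic reticulum in the order Msmo1, Nsdhl and Hsd17b7, with the small membrane protein Erg28 as its scaffold. In humans, inherited loss of NSDHL, EBP or DHCR7 function causes developmental disorders.

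Of the 7 late enzymes, 2 fell in Srebp2cKO Tregs and 0 rose. Msmo1, which starts C4 demethylation, stood at 61.0% of its Srebp2WT level, and Dhcr7, which converts 7-dehydrocholesterol to cholesterol, at 77.0%. The other 5 did not pass the test, with fitted levels of 83.2% of Srebp2WT for Tm7sf2, 84.1% for Sc5d, 85.9% for Nsdhl and 102% for Hsd17b7, and a log2 fold change of -0.07 for Ebp. A gene was called when its p from edgeR's quasi-likelihood test, adjusted by Benjamini-Hochberg over 11932 genes, was under 0.05. Among all tested genes 4.24% were called lower in Srebp2cKO and 2.37% higher, against 28.6% of the 7 late enzymes called lower. The median log2 fold change of the late enzymes was -0.25, against 0.0 over all tested genes. DESeq2 and limma-voom also called 0 late enzymes higher, and 0 were higher at an unadjusted p under 0.05 in any of the 3 tools. No test was made on the list as a whole, since its genes were chosen with results of these data known.

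The promoters are shown for the late enzyme with the largest difference, for the other one that fell, and for the one with a difference nearest to 0. They come from RefSeq (GRCm38.p6), which held 9 windows for the 7 genes, each running from 250 bases before a transcription start to 50 after it. Capitals mark CCAAT (or ATTGG, its other strand), the site of the factor NF-Y that often works beside SREBPs, and any match to TCACNCCA.
Msmo1, chr8:64733529-64733828, minus strand: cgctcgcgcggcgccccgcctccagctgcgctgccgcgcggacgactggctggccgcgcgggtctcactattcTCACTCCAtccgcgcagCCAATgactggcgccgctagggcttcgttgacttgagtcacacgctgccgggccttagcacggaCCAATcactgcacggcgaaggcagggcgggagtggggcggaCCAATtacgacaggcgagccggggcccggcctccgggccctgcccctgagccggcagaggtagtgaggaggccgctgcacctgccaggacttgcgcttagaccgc
Dhcr7, the third of its 3 windows, chr7:143829964-143830263, plus strand: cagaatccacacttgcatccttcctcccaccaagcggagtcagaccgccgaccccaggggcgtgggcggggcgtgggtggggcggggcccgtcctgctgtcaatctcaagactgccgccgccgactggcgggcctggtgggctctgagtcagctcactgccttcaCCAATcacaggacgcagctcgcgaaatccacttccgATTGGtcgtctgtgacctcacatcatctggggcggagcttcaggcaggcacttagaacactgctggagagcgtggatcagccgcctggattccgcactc
Hsd17b7, chr1:169969156-169969455, minus strand: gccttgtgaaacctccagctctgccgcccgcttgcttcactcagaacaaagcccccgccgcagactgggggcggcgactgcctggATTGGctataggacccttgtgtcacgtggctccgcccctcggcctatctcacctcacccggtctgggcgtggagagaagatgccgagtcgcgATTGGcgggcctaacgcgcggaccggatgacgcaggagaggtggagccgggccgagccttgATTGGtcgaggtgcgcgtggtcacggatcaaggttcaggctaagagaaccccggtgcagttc
The Dhcr7 window was picked after its matches were seen, since it is the one of the 3 that holds CCAAT. Each of the 7 genes had CCAAT on either strand in at least 1 window, 7 of the 9 windows in all, against 37.4% of 32851 promoter windows in the table. GGGCGG, a GC box, was found on either strand in 8 of the 9 windows, against 35.7% of all windows. The letters TCACNCCAC, a form of the sterol regulatory element, were in 0 of the 9 windows on either strand and in 1.24% of all windows. Its shorter form TCACNCCA, which lies within the longer one, was in 4.36% of all windows and in that of Msmo1, as TCACTCCA at position -177 from the start site, in a window that also holds 3 CCAAT boxes. CACGTG, an E-box, was in 3 windows, of Hsd17b7, Sc5d and the second Dhcr7 start, against 7.15% of all windows. These are matches of letters, not measured binding.

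The deletion and the cells were checked first. Srebf2, the gene for SREBP2, held 187, 197 and 183 counts in the Srebp2cKO libraries and 3043, 2980 and 2548 in the Srebp2WT libraries (edgeR log2 fold change -3.91, adjusted p = 1.49e-08). Counts assigned to genes totalled 13918321 to 17249898 per library. The 6 Treg markers Foxp3, Il2ra, Ctla4, Ikzf2, Cd4 and Cd3e were present in every library, with a summed level of 4113 to 4213 CPM in Srebp2cKO and 4107 to 4231 CPM in Srebp2WT. Within that sum Il2ra rose (log2 fold change 0.41, edgeR adjusted p = 0.0101), while Ctla4 (0.23) lay above and Ikzf2 (-0.26) below Srebp2WT in all Srebp2cKO libraries without passing. CPM are counts scaled to a common library size with TMM factors. Markers of other cells differed between the genotypes. The 8 B cell markers summed to 26.0 to 34.7 CPM in Srebp2cKO and 56.4 to 77.6 CPM in Srebp2WT, although the defining Ms4a1 had at most 2 counts in any library. Cd74, Cd22 and Cd79b made up most of that sum, while Cd79a lay the other way, with 14, 15 and 17 counts in Srebp2cKO and 8, 11 and 12 in Srebp2WT. The 8 myeloid markers summed to 37.9 to 43.4 CPM in Srebp2cKO and 53.6 to 86.0 CPM in Srebp2WT, with Fcgr1 at 0 and at most 5 counts of Lyz2. Most of that sum was Cybb, and the other 2 tested myeloid markers lay the other way, with 56, 73 and 65 counts of Cd68 in Srebp2cKO and 52, 52 and 48 in Srebp2WT, and 35, 20 and 38 counts of Itgam in Srebp2cKO and 13, 10 and 21 in Srebp2WT. The 4 natural killer markers summed to 15.9 to 16.8 CPM in Srebp2cKO and 15.8 to 22.9 CPM in Srebp2WT, with Ncr1 at 0. Within that sum Klrb1c had 9, 13 and 14 counts in Srebp2cKO and 42, 24 and 27 in Srebp2WT. Nkg7 had 114, 114 and 142 in Srebp2cKO and 227, 178 and 128 in Srebp2WT. Prf1 lay the other way, with 98, 119 and 132 counts in Srebp2cKO and 96, 103 and 79 in Srebp2WT. These counts are not scaled. In CPM, Klrb1c and Nkg7 lay wholly below Srebp2WT and Prf1 wholly above, as did 15.5% and 16.0% of all tested genes. The 2 CD8 markers summed to 8.77 to 10.5 CPM in Srebp2cKO and 6.97 to 7.39 CPM in Srebp2WT. The 6 stromal, endothelial and epithelial markers summed to 224 to 240.0 CPM in Srebp2cKO and 181 to 188 CPM in Srebp2WT. That sum was mostly Pecam1. Cdh5 had at most 1 count in any library, Pdgfrb at most 2, Col1a2 at most 16 and Col1a1 at most 18. The sum therefore follows Pecam1 and does not measure stroma or endothelium. Epcam lay the other way, with 56, 76 and 96 counts in Srebp2cKO and 188, 210 and 132 in Srebp2WT. The 8 proliferation markers, among them Mki67 and Top2a, summed to 87.5, 75.9 and 126 CPM in Srebp2cKO and 179, 92.8 and 164 CPM in Srebp2WT. These ranges overlapped, but all 8 markers had a negative log2 fold change (median -0.49, range -0.78 to -0.12). Of the 8, 1 was called lower (edgeR), against 4.24% of all tested genes. The part of these markers in the results below was not tested. In bulk RNA, fewer cells of a kind and less RNA per cell cannot be told apart.

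The first late step is the reduction at C14, which either Tm7sf2 or Lbr, the lamin B receptor of the inner nuclear membrane, can carry out. Tm7sf2 (chromosome 19, 6062821 to 6068373, minus strand; GRCm38 here and below) had 7.20, 5.29 and 5.42 CPM in the Srebp2cKO libraries and 7.52, 6.89 and 7.04 CPM in the Srebp2WT libraries. Srebp2cKO replicates 7 and 8 lay below all Srebp2WT libraries, while replicate 6 lay among them. Its log2 fold change was -0.27 (95% interval -0.66 to 0.13, edgeR adjusted p = 0.344), and the interval reached from 63.3% to 109% of the Srebp2WT level. Without 1 library the log2 fold change ranged from -0.41, without Srebp2cKO replicate 6, to -0.19, without Srebp2cKO replicate 7. Tm7sf2 shares 532 exonic bases, 12.08% of its exonic length, with Vps51 on the same strand, so its count is uncertain. Lbr averaged 302 CPM in Srebp2cKO and 279 CPM in Srebp2WT (log2 fold change 0.12, 95% interval -0.10 to 0.33, edgeR adjusted p = 0.448). Its exons share 440 bases with Dnah14 on the opposite strand.

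Of the 3 enzymes of C4 demethylation, only Msmo1 passed the test. Msmo1, the oxygenase that attacks the methyl groups (chromosome 8, 64718139 to 64733792, minus strand), had 13.3, 12.2 and 14.7 CPM in Srebp2cKO and 23.4, 20.2 and 22.3 CPM in Srebp2WT. The highest Srebp2cKO library was well below the lowest Srebp2WT library. Its mean was 13.4 ± 1.25 CPM in Srebp2cKO and 22.0 ± 1.66 CPM in Srebp2WT (SD, n = 3 each here and below), a log2 fold change of -0.71 (SE 0.12, 95% interval -0.97 to -0.45, edgeR adjusted p = 0.00938). Among all tested genes, 5.50% had a lower log2 fold change.

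Nsdhl, the dehydrogenase that removes the oxidised C4 group as carbon dioxide (chromosome X, 72918557 to 72958514, plus strand), had 12.6, 11.2 and 12.1 CPM in Srebp2cKO and 16.0, 12.8 and 13.1 CPM in Srebp2WT. The genotypes did not overlap, but replicate 6 of Srebp2cKO and replicate 3 of Srebp2WT lay close together, and the gene did not pass (log2 fold change -0.22, 95% interval -0.51 to 0.07, edgeR adjusted p = 0.291). Without Srebp2WT replicate 1, its highest library, the log2 fold change was -0.11. Hsd17b7, the reductase that closes the cycle (chromosome 1, 169949535 to 169969241, minus strand), had 8.30, 7.29 and 7.58 CPM in Srebp2cKO and 8.33, 6.96 and 7.31 CPM in Srebp2WT. These ranges covered each other almost completely (log2 fold change 0.03, 95% interval -0.31 to 0.37, edgeR adjusted p = 0.905), and the sign turned with total-count scaling (-0.001). Erg28, listed under its older symbol 0610007P14Rik, averaged 18.6 CPM in Srebp2cKO and 20.6 CPM in Srebp2WT (log2 fold change -0.15, edgeR adjusted p = 0.392).

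Ebp and Sc5d, the isomerase and the desaturase of the sterol B ring, did not pass. Ebp (chromosome X, 8185329 to 8193512, minus strand) had 27.7, 26.6 and 29.2 CPM in Srebp2cKO and 30.5, 29.5 and 28.0 CPM in Srebp2WT, and the ranges overlapped. Its log2 fold change of -0.07 had a 95% interval of -0.28 to 0.13 (edgeR adjusted p = 0.613), so the fitted level lay between 82.6% and 109% of Srebp2WT. Sc5d (chromosome 9, 42251595 to 42264256, minus strand) had 39.7, 50.1 and 34.5 CPM in Srebp2cKO and 47.7, 45.4 and 54.6 CPM in Srebp2WT. It varied most among the Srebp2cKO libraries, where replicate 7 lay above 2 of the 3 Srebp2WT libraries and the other 2 lay below all of them. It stood at 84.1% of Srebp2WT (log2 fold change -0.25 with SE 0.13, 95% interval -0.55 to 0.05, edgeR adjusted p = 0.237). Without Srebp2cKO replicate 7 it was -0.42, and without Srebp2cKO replicate 8 it was -0.13, neither of them called (edgeR adjusted p = 0.0822 and 0.580).

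Dhcr7, the last enzyme of the route through 7-dehydrocholesterol (chromosome 7, 143823145 to 143848410, plus strand), fell with little spread between libraries. It had 22.8, 21.7 and 21.8 CPM in Srebp2cKO and 28.1, 28.4 and 29.6 CPM in Srebp2WT, with a clear gap between the genotypes. The mean was 22.1 ± 0.638 CPM in Srebp2cKO and 28.7 ± 0.830 CPM in Srebp2WT, a log2 fold change of -0.38 (SE 0.09, 95% interval -0.58 to -0.18, edgeR adjusted p = 0.0373). The call was lost without Srebp2WT replicate 1, 3 or 5 and without Srebp2cKO replicate 7 or 8 (edgeR adjusted p = 0.0611 to 0.126), while the log2 fold change was between -0.39 and -0.36 in these fits. Over all tested genes, 506 were called lower with 6 libraries and 135 to 662 in these fits. The call of Dhcr7 was also lost once the GC trend of each library was removed (log2 fold change -0.25, edgeR adjusted p = 0.108).

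**Figure D1:**
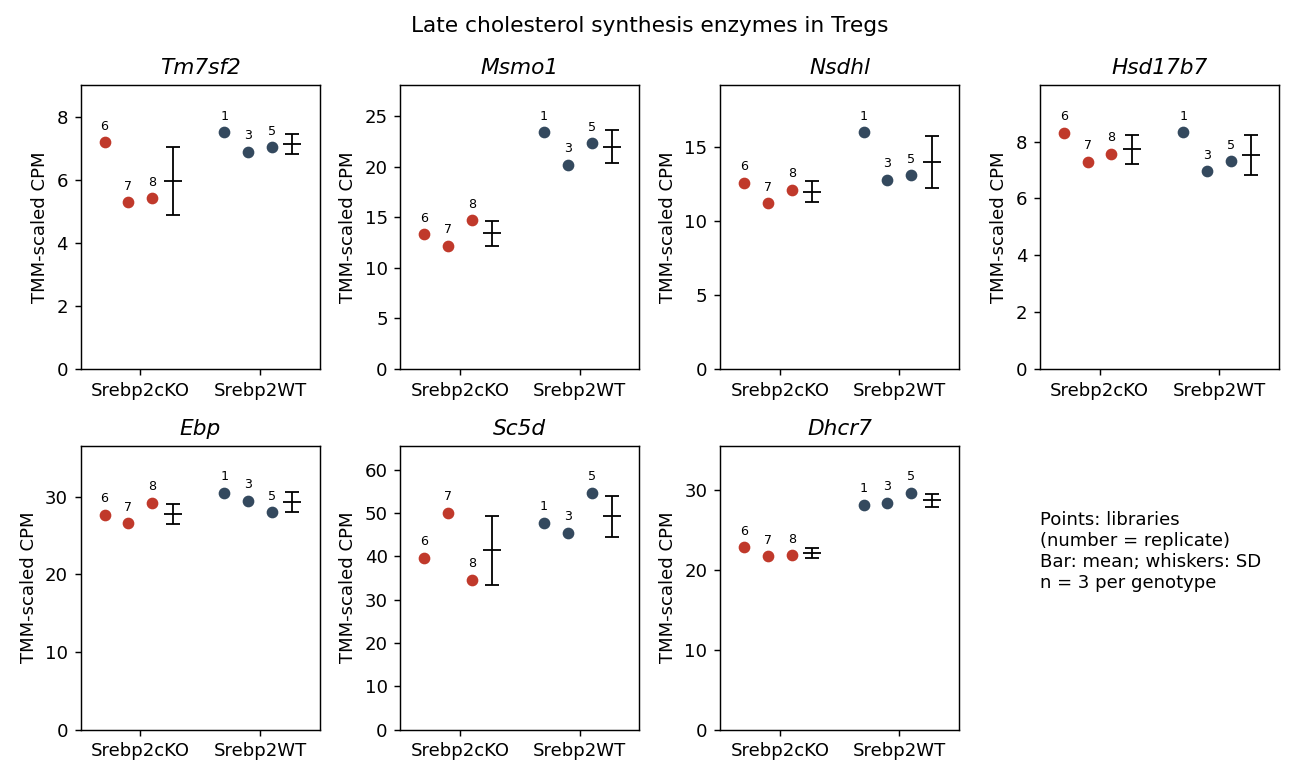
TMM-scaled CPM of each late enzyme in each library, with Srebp2cKO left and Srebp2WT right, the replicate number above each point, and the mean with SD (n = 3) beside the points. Msmo1 and Dhcr7 show a gap between the genotypes, Nsdhl a narrow one (highest Srebp2cKO library 12.6 CPM, lowest Srebp2WT library 12.8 CPM), and the other 4 overlap.

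In 3 of the 7 late enzymes, Msmo1, Nsdhl and Dhcr7, all Srebp2cKO libraries lay below all Srebp2WT libraries, and in 0 above. Over all tested genes 15.5% lay wholly below and 16.0% wholly above. Summed over the 7 genes, the libraries held 132, 134 and 125 CPM in Srebp2cKO and 161, 150.1 and 162 CPM in Srebp2WT, with no overlap between the genotypes. The mean sum was 130.4 ± 4.65 CPM in Srebp2cKO and 158 ± 6.67 CPM in Srebp2WT, given without a test because the genes were chosen.

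Levels can be compared between genes only per transcript length, here CPM per kilobase of the longest GENCODE transcript. The order of the genes depends on that length, and levels over all exons were not computed. Msmo1 has 2969 bases in its longest transcript and 6144 over all exons, Nsdhl 2168 and 2853, and Dhcr7 2815 and 5817. Per kilobase, Ebp stood highest in both genotypes, at 16.0 ± 0.757 in Srebp2cKO and 16.8 ± 0.723 in Srebp2WT. Sc5d followed at 8.65 ± 1.66 in Srebp2cKO and 10.3 ± 1.00 in Srebp2WT, and Dhcr7 at 7.85 ± 0.227 in Srebp2cKO and 10.2 ± 0.295 in Srebp2WT. These 2 neighbours overlapped in both genotypes, while Ebp lay above them in every library. With longest-transcript lengths, Msmo1 and Nsdhl changed places in the order. In Srebp2cKO, Nsdhl (5.53 ± 0.329) lay above Msmo1 (4.51 ± 0.422) without overlap. In Srebp2WT, Msmo1 (7.40 ± 0.561) had the higher mean and overlapped with Nsdhl (6.44 ± 0.811). Tm7sf2 (1.94 ± 0.345 in Srebp2cKO and 2.32 ± 0.106 in Srebp2WT) and Hsd17b7 (1.67 ± 0.113 in Srebp2cKO and 1.63 ± 0.155 in Srebp2WT) were lowest, and they overlapped in Srebp2cKO but not in Srebp2WT.

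Ratios between 2 genes of the same library do not depend on how libraries are scaled. The log2 ratio of Msmo1 to Nsdhl counts was 0.07, 0.12 and 0.28 in Srebp2cKO and 0.55, 0.65 and 0.77 in Srebp2WT, a difference of -0.50. That of Msmo1 to Hsd17b7 was 0.68, 0.74 and 0.95 in Srebp2cKO and 1.49, 1.53 and 1.61 in Srebp2WT, a difference of -0.75. In both ratios the genotypes were separated, so Msmo1 was lower relative to the other 2 enzymes of its cycle in 3 of 3 Srebp2cKO libraries. The exact two-sided permutation p was 0.1 for each, the smallest that 3 against 3 libraries can give, and 0.25 after Benjamini-Hochberg adjustment over the 5 ratios computed, so neither can pass 0.05 in this design.

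The other 3 ratios overlapped between the genotypes. Msmo1 to Sc5d averaged -1.61 ± 0.40 in Srebp2cKO and -1.16 ± 0.13 in Srebp2WT (exact permutation p = 0.2, adjusted 0.25), and the difference of -0.45 was -0.24 without Srebp2cKO replicate 7 and -0.64 without Srebp2cKO replicate 8. Tm7sf2 to Lbr, the alternative C14 reductases, averaged -5.67 ± 0.30 in Srebp2cKO and -5.27 ± 0.22 in Srebp2WT (exact permutation p = 0.2, adjusted 0.25). Dhcr7 to Sc5d averaged -0.89 ± 0.28 in Srebp2cKO and -0.77 ± 0.10 in Srebp2WT (exact permutation p = 0.7, adjusted 0.7), and the sign of that difference turned without Srebp2cKO replicate 7 (0.05).

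**Figure D2:**
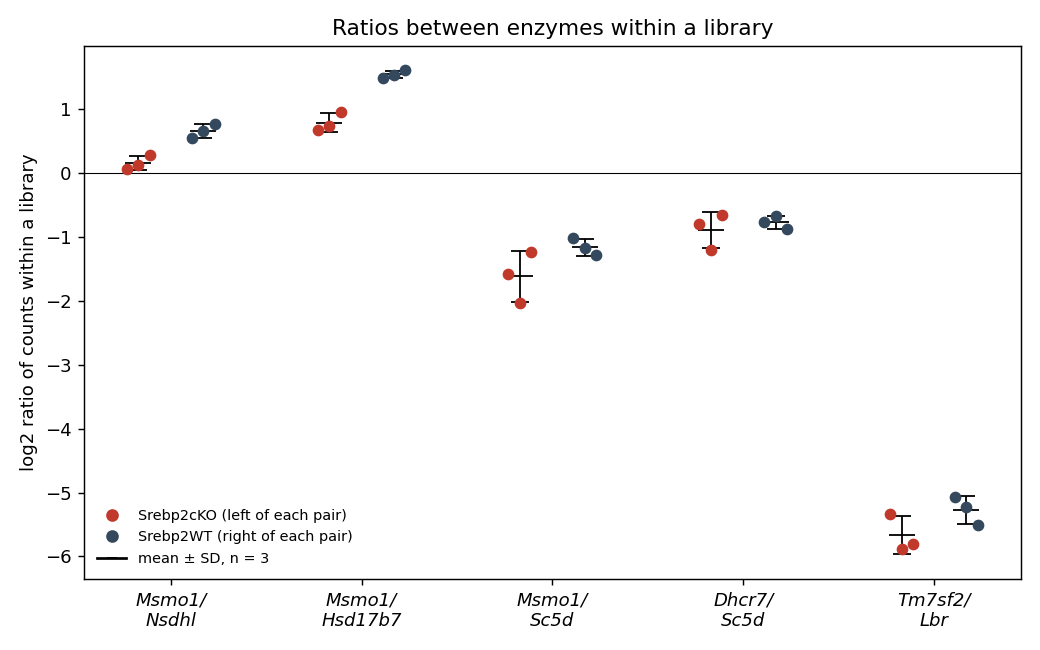
Log2 ratio of the counts of 2 enzymes within each library, Srebp2cKO left and Srebp2WT right in each pair, with mean and SD (n = 3). The ratios of Msmo1 to Nsdhl and to Hsd17b7 are separated between the genotypes (differences -0.50 and -0.75), and the other 3 overlap.

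The rest of the pathway gives the setting. Of the 14 other cholesterol synthesis enzymes, most of them earlier in the pathway, 9 fell and 0 rose (edgeR), with a median log2 fold change of -0.75, and 12 had an unadjusted p under 0.05, all lower, against 29.1% of all tested genes in either direction. DESeq2 called 10 of them, all lower, and limma-voom 9, all lower, where these tools called 6.52% and 4.23% of all tested genes lower. Cyp51, the demethylase directly before the late enzymes, averaged 11.6 CPM in Srebp2cKO and 36.2 CPM in Srebp2WT (log2 fold change -1.63, edgeR adjusted p = 8.51e-05). Sqle, squalene epoxidase, averaged 0.677 CPM in Srebp2cKO and 14.9 CPM in Srebp2WT (-4.49). Idi1 (-1.67), Fdps (-0.85), Mvk (-0.82), Fdft1 (-0.81) and Hmgcs1 (-0.47) also fell. Among these, the call of Mvk was lost without Srebp2WT replicate 1 or 3, without Srebp2cKO replicate 7 or 8 and with the GC correction. That of Hmgcs1 was lost without Srebp2WT replicate 1, 3 or 5 or Srebp2cKO replicate 8, and that of Idi1 without Srebp2WT replicate 3. The differences of Mvd (-0.69), Pmvk (-0.58), Lss (-0.34) and Acat2 (-0.03) did not pass. Among the late enzymes the 95% interval of Msmo1 lay wholly above those of Cyp51, Sqle and Idi1, and that of Dhcr7 did too. The interval of Dhcr7 (-0.58 to -0.18) also lay just above that of Fdft1 (-1.03 to -0.59), and it overlapped those of Fdps, Mvk and Hmgcs1. The interval of Msmo1 overlapped those of Fdps, Mvk, Fdft1 and Hmgcs1, and the difference between these genes was not tested.

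**Figure D3:**
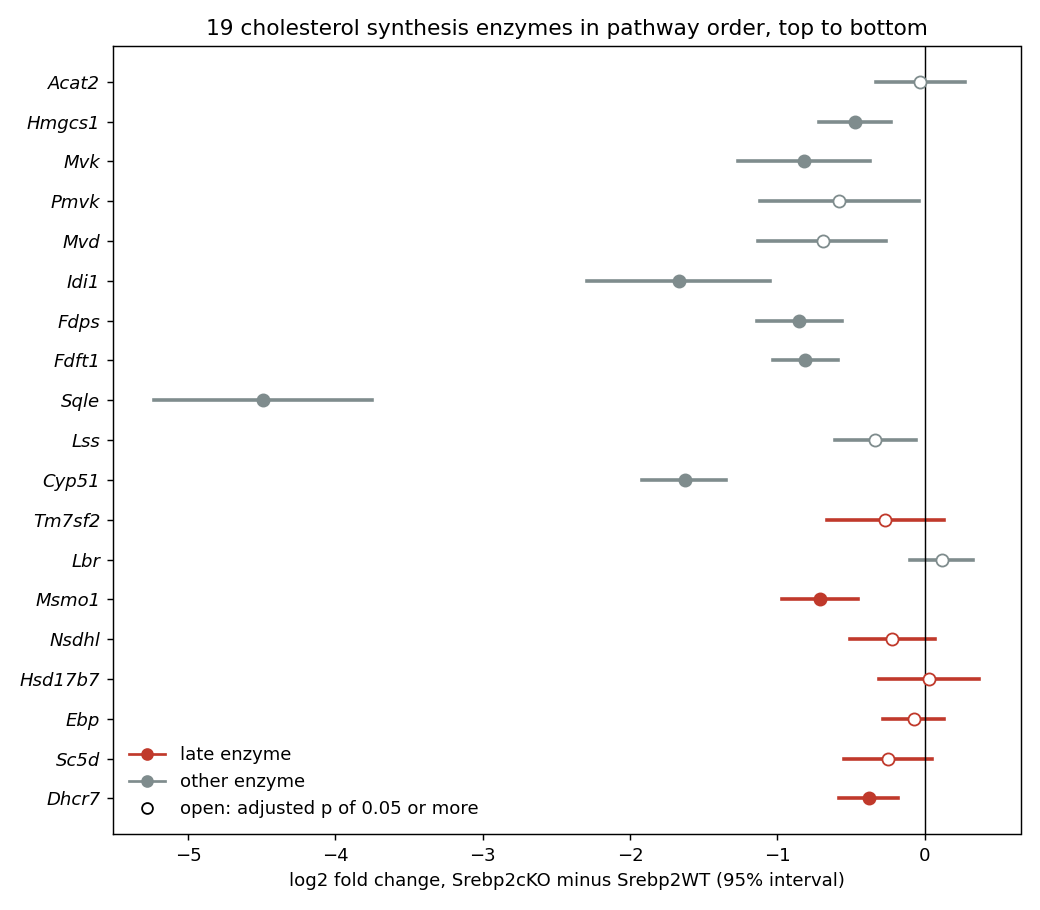
Log2 fold change (Srebp2cKO minus Srebp2WT) with its 95% interval for 19 cholesterol synthesis enzymes in pathway order from top to bottom. The late enzymes are in red, 12 other enzymes in grey, and open points did not pass. All late enzymes lie between -0.71 and 0.03, while Sqle reaches -4.49.

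Several late enzymes depend on partners. Msmo1 and Sc5d receive electrons through cytochrome b5 and its reductase, and the P450 reductase Por serves Cyp51. Of 11 partner genes, which also included the progesterone receptor membrane components Pgrmc1 and Pgrmc2, the Ebp paralogue Ebpl and the sterol sensors Insig1 and Insig2, 1 fell and 0 rose (edgeR). The list's median log2 fold change was -0.03, and 3 had an unadjusted p under 0.05, near the 29.1% of all tested genes. The 1 call lower compares with 4.24% of all tested genes. DESeq2 and limma-voom each called 1 partner lower and 0 higher. The 1 that fell was Insig1, listed here as a sterol sensor and not as an electron donor of the late enzymes. Insig1 averaged 24.4 CPM in Srebp2cKO and 40.1 CPM in Srebp2WT (log2 fold change -0.72, edgeR adjusted p = 0.00349). Cytochrome b5 (Cyb5a) averaged 85.4 CPM in Srebp2cKO and 69.3 CPM in Srebp2WT without passing (0.30, edgeR adjusted p = 0.117). Cyb5b (-0.03), Cyb5r3 (-0.13), Cyb5r1 (0.05) and Por (-0.21) did not pass either.

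Fold changes in these libraries followed the GC content of transcripts, with a median log2 fold change of 0.23 in the lowest GC decile and -0.26 in the highest. The median in the decile of Msmo1 (transcript GC 44.7%) was 0.12, opposite in sign to its own -0.71. Dhcr7 (52.8%) lay in a decile with a median of -0.07, the same sign as its own -0.38. Sc5d (42.9%) had the lowest GC content of the 7, in a decile with a median of 0.16. Removing the GC trend from each library gave log2 fold changes of -0.78 for Msmo1, -0.35 for Sc5d, -0.26 for Nsdhl, -0.25 for Dhcr7, -0.20 for Tm7sf2, -0.05 for Hsd17b7 and -0.0048 for Ebp. With it only Msmo1 was called (edgeR adjusted p = 0.00348), where 3.39% of all tested genes were called lower.

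**Figure D4:**
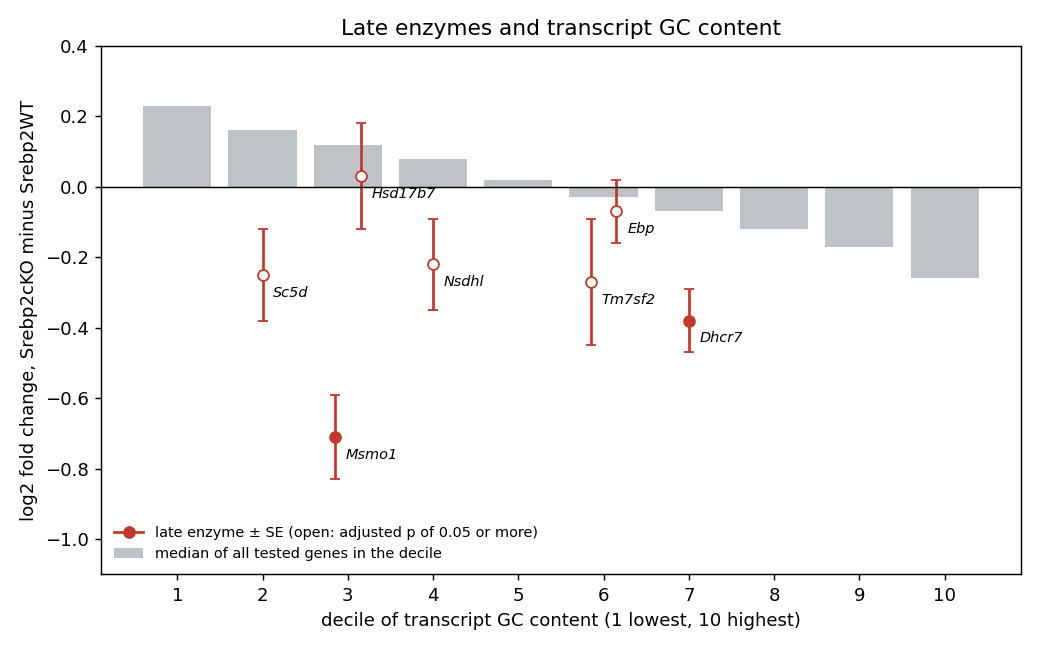
Log2 fold change (Srebp2cKO minus Srebp2WT) of the late enzymes with SE, placed by the decile of their transcript GC content, over bars for the median of all tested genes in each decile. Bar heights run from 0.23 in the lowest decile to -0.26 in the highest, and Msmo1 lies far below the bar of its decile (0.12).

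The call of Msmo1 held in 21 of 21 alternative settings, with log2 fold changes between -0.83 and -0.65, and that of Dhcr7 in 9 of 21. No other late enzyme passed in any of them, except Sc5d with the GC correction and without Srebp2cKO replicate 7 (-0.48, edgeR adjusted p = 0.0386).

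**Figure D5:**
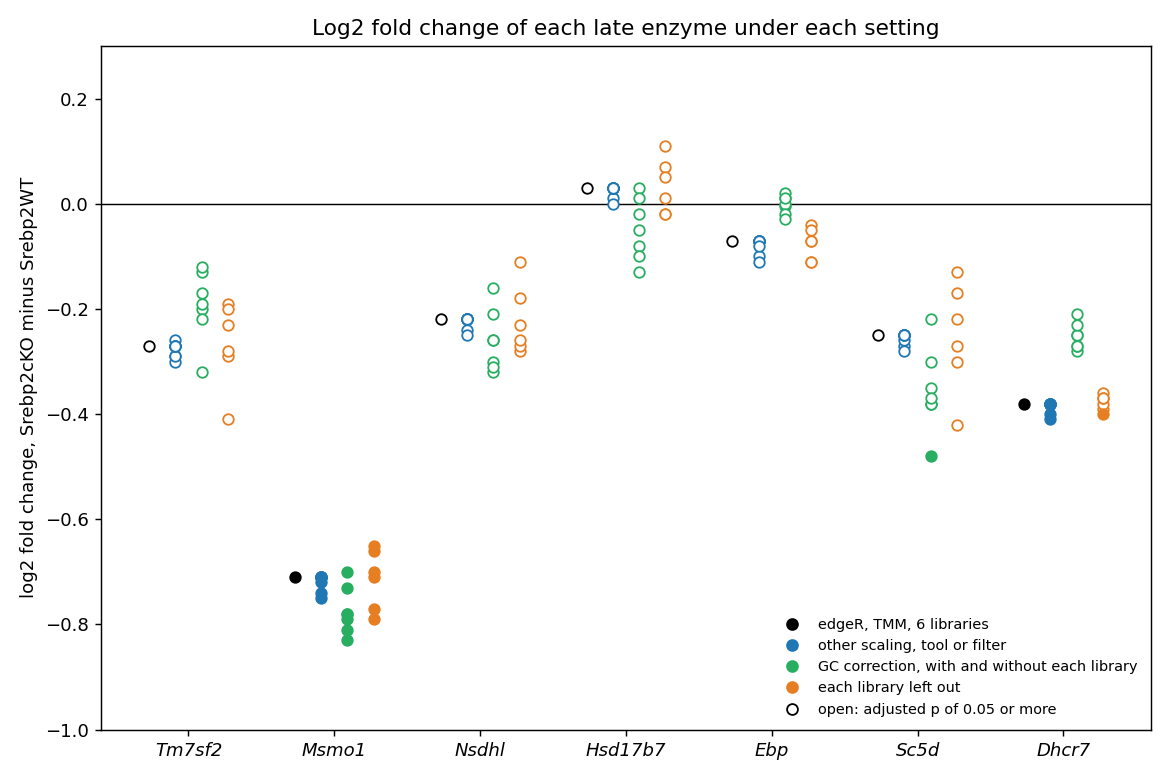
Log2 fold change (Srebp2cKO minus Srebp2WT) of each late enzyme in edgeR with TMM on 6 libraries (black), with other scalings, tools and filters (blue), with GC correction (green) and with each library left out (orange). Filled points have an adjusted p under 0.05, which holds for every point of Msmo1, for 9 of 21 alternatives of Dhcr7 and for 1 of Sc5d.

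For each late enzyme, the genes with the most similar course over the 6 libraries were found as those with the smallest root mean square difference of mean-centred log2 CPM, among 8575 genes with a mean log2 CPM of at least 3. The nearest to Msmo1 were Map6 (0.0678) and Marcksl1 (0.0737), and to Dhcr7 Slc1a5 (0.0319) and Mllt1 (0.0366). Nsdhl was nearest to Cd52 (0.00812), and Ebp to Rmnd5b (0.0110) and Akr1a1 (0.0207). Tm7sf2 was nearest to Clcf1-pold4 (0.0184) and Ap5z1 (0.0327), Hsd17b7 to Exoc6b (0.0235) and Glod4 (0.0372), and Sc5d to Tspyl4 (0.0623) and Hist1h1e (0.0770). Among the late enzymes themselves, the nearest to Msmo1 was Dhcr7 (0.198), at rank 259 of the 8575 candidates. A search over so many genes is bound to find closer genes than so short a list holds. Whether the late enzymes vary together can therefore not be read from these distances.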

How the data were processed

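The authors deposited raw counts per gene symbol, whole numbers with 1 column per library. Per the labels' protocols, a Qiagen RNeasy kit was used for RNA and a KAPA RNA HyperPrep kit with RiboErase for libraries. The submitters' processing notes name HISAT2 2.2.1, mm10 and Cell Ranger without roles. No source used here gives the counting tool, annotation or strand setting, which leaves counts of overlapping genes uncertain.

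Columns were matched by sample title, and all 6 libraries entered as separate replicates (pairs within a genotype differed by a chi-square of 6.71 to 34.8 per degree of freedom). Genes kept by filterByExpr (11932 of 24421) were tested with edgeR 4.0.16 in R 4.3.3 (TMM, quasi-likelihood F test, Srebp2cKO minus Srebp2WT, no covariate), after the fit was tested on simulated data. The SE is the log2 fold change divided by the square root of F. Ratios used a prior count of 0.5. Alternatives were other scalings, DESeq2 1.42.0, limma-voom (limma 3.58.1), robust dispersion, other filters, a false discovery rate of 0.1, leaving out each library, and a GC correction (loess, span 0.3, longest GENCODE M21 transcript, 11459 genes). The GC correction with each library left out was added after seeing the data. The late enzymes, the lists and the tests were chosen with earlier results of these data known. Named genes are the 7 late enzymes, fixed lists of enzymes and partners, and the 2 most similar genes of each. Results of some genes in these lists are not reported here.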

Additional observations from a re-analysis of the deposited data

How the results depend on the processing

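The count of 2 late enzymes called stayed at 2 with DESeq2, with limma-voom, with robust dispersion, under all 3 other scalings, both other filters and a false discovery rate of 0.1. It was 1 with the GC correction and 1 to 2 when 1 library was left out, with or without that correction. Over all tested genes (11932 to 12110 in these fits), 506 were called lower with TMM and 6 libraries, and 405 with the GC correction. Without 1 library 135 to 787 were called lower, and 176 to 427 with the correction as well. The log2 fold change of Dhcr7 lost its call with the GC correction (-0.25) and in fits without 1 library other than Srebp2cKO replicate 6 (-0.40 to -0.36 over all 6 fits, and -0.28 to -0.21 with the correction as well). Sc5d ranged from -0.42 to -0.13 without 1 library and from -0.48 to -0.22 with the correction too. The sign of Hsd17b7 turned with total counts alone (-0.001), with the GC correction (-0.05) and in some fits without 1 library (-0.02 to 0.11, and -0.13 to 0.03 with the correction). Ebp (-0.11 to -0.04 without 1 library) turned in some fits with the correction as well (-0.03 to 0.02). The ratio of Dhcr7 to Sc5d had a difference of 0.05 without Srebp2cKO replicate 7 (range -0.23 to 0.05). The other 4 ratios kept their direction. The causes of these changes were not tested. The count of 9 other enzymes called ranged from 6 to 10 over all settings, and Acat2 turned in sign with the GC correction (0.02) and in some fits without 1 library (-0.10 to 0.09 with or without the correction). Lbr turned in 1 fit, with the correction and without Srebp2WT replicate 1 (-0.02), and reached 0.23 without Srebp2WT replicate 5. The median of all tested genes moved by at most 0.05 with all 6 libraries. No paired analysis was possible because the genotypes share no replicate number. Tm7sf2 and Hsd17b7, with 82 to 133 counts per library, have the widest intervals among the 7.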
